A study of Homo sapiens with 6 samples.

Results

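The contactins and the contactin-associated proteins are neural cell adhesion molecules. The 10 genes described here, 6 contactins (CNTN1 to CNTN6) and 4 contactin-associated proteins (CNTNAP1, CNTNAP2, CNTNAP4 and CNTNAP5), were chosen by name, out of 19970 protein-coding genes. CNTNAP3, which has close copies on chromosome 9, is not among them. Each gene was described by the CTCF and H3K27ac peaks that met its GRCh38 interval extended by 10 kb at both ends. The chromatin came from neurons differentiated from neural progenitor cells of the established human iPSC (induced pluripotent) line KOLF2.1J, with no treatment or genotype contrast. Chromatin immunoprecipitation followed by sequencing was done with 2 libraries for CTCF, a DNA-binding protein found at chromatin loop anchors, 2 for H3K27ac, a histone acetylation of active promoters and enhancers, and 2 for input. The deposited data are 1 peak list per antibody made from both libraries, so every value below is a single value without a replicate error, the depth behind it is unknown, and no test between samples was possible.

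Contactins are immunoglobulin-domain proteins held on the outer face of the membrane by a lipid anchor, and contactin-associated proteins (Caspr proteins) span the membrane and resemble neurexins. They act in pairs: CNTN1 with CNTNAP1 builds the axonal side of the paranodal junction beside the node of Ranvier, and CNTN2 with CNTNAP2 gathers potassium channels next to it. CNTN3, CNTN4, CNTN5, CNTN6, CNTNAP4 and CNTNAP5 are better known for axon guidance, synapse formation and circuit wiring. An H3K27ac peak at a gene's start commonly accompanies transcription, but neither list measures RNA.

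The labelled cell type was checked against marker genes. H3K27ac peaks met all 8 neuronal markers, whose highest fold enrichments per gene had a median of 17.9, and all 5 neural progenitor markers, with a median of 35.3. Peaks also met 4 of 5 astrocyte markers, 5 of 6 oligodendrocyte markers and 3 of 4 pluripotency markers, with medians of 14.3, 5.85 and 7.41, and AQP4, OLIG2 and NANOG had none. Over all protein-coding genes, 77.1% had a peak, which is near the shares in these last 3 lists, and the median of the highest values was 12.3. The astrocyte values were uneven. GFAP had 62.8, the highest value of any marker listed, above the highest neuronal value (35.9, MAP2) and the highest progenitor value (40.98, SOX2). The other astrocyte markers with a peak had 20.02 (S100B), 14.3 (SLC1A3) and 4.39 (ALDH1L1). The part of cells other than neurons in the family's peaks was not tested. In a mixed culture, fewer marked cells and less mark per cell cannot be told apart.

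All 10 genes had at least 1 H3K27ac peak and at least 1 CTCF peak. That is close to the background for genes of similar length. Of all protein-coding genes, 77.1% had an H3K27ac peak and 75.2% a CTCF peak. In the 418 genes of similar length used for comparison the shares were 94.7% and 90.4%. Those 418 include short genes, matched to CNTN2 (35.3 kb) and CNTNAP1 (17.5 kb). Of the 50 matched to CNTNAP1, 10 lacked an H3K27ac peak and 19 a CTCF peak. For CNTN2 these numbers were 2 and 13. The differences lay in the number, place and height of the peaks. Together the family held 93 H3K27ac peaks, and 64 of them were in CNTNAP2 and CNTN4. The plot of peak positions shows these 2 genes marked in many places, and the others at few.

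**Figure D1:**
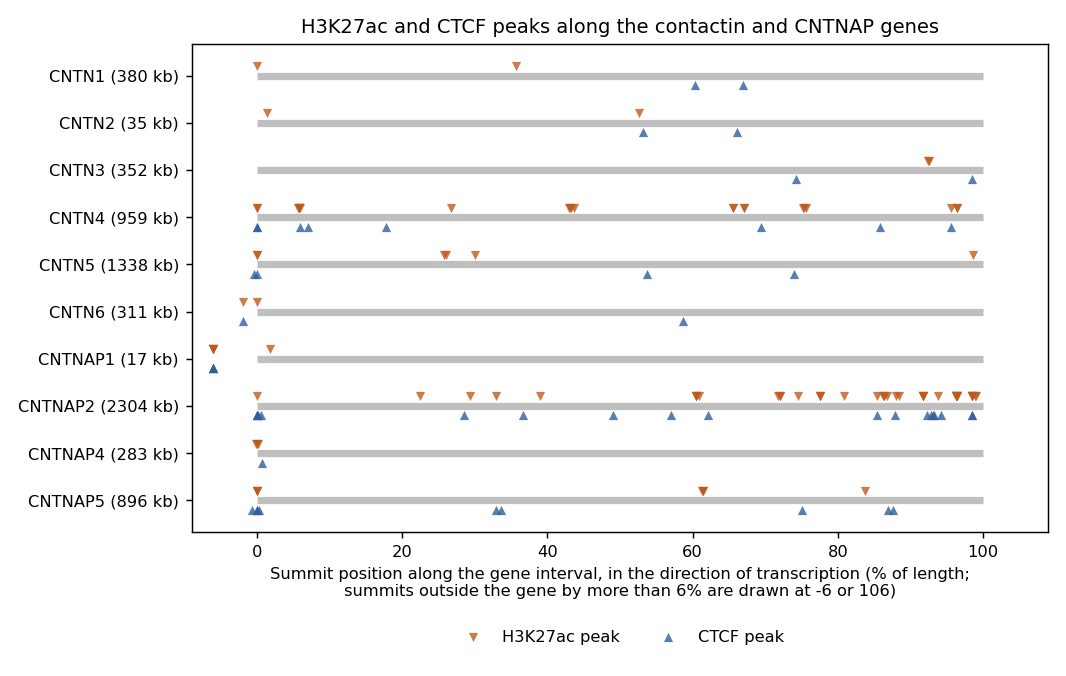
Summits of H3K27ac peaks (orange, above the bar) and CTCF peaks (blue, below the bar) along each gene, with the position given as a percent of gene length in the direction of transcription. CNTNAP2 has 42 H3K27ac peaks, most of them in the second part of the gene, whereas CNTN1, CNTN2, CNTN3 and CNTN6 have 2 each.

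The members also differed at their start sites. An H3K27ac peak lay within 1 kb of an annotated start in 9 of the 10 genes, against 65.9% of the 15812 protein-coding genes with an annotated start window and 80.0% of such genes of similar length. No member's highest value there lay between 4.44 and 13.5. In CNTNAP2, CNTNAP1, CNTN6 and CNTN4 the highest fold enrichment at a start was 15.7, 15.6, 13.6 and 13.5. In CNTNAP5, CNTN1, CNTN5, CNTNAP4 and CNTN2 it was 4.44, 4.43, 3.90, 3.88 and 3.11. CNTN3 had no peak there.

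The lower set lay near the bottom of the genome's range. Among all other protein-coding genes with a peak at a start, the median height was 15.9 with quartiles of 9.10 and 26.9, and genes of similar length had a median of 13.1. Against all other genes the 5 low members stood between percentiles 1.14 and 5.93, and the 4 high members between 41.8 and 49.2. No member had a start peak above the median of all genes. Against the 272 genes of similar length with a start peak, the 4 high members stood between percentiles 51.8 and 58.1. The 5 low members stood between 0.919 and 6.62 there. All 9 members with a start peak kept one when only peaks with q under 0.01 were used. In the stronger 50% of the list only the 4 high members kept one. That result was fixed by the heights already given, because the list median is 4.74. The low members reached at most 4.44 at a start, and the high members at least 13.5. It therefore adds nothing on the gap between low and high members.

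**Figure D2:**
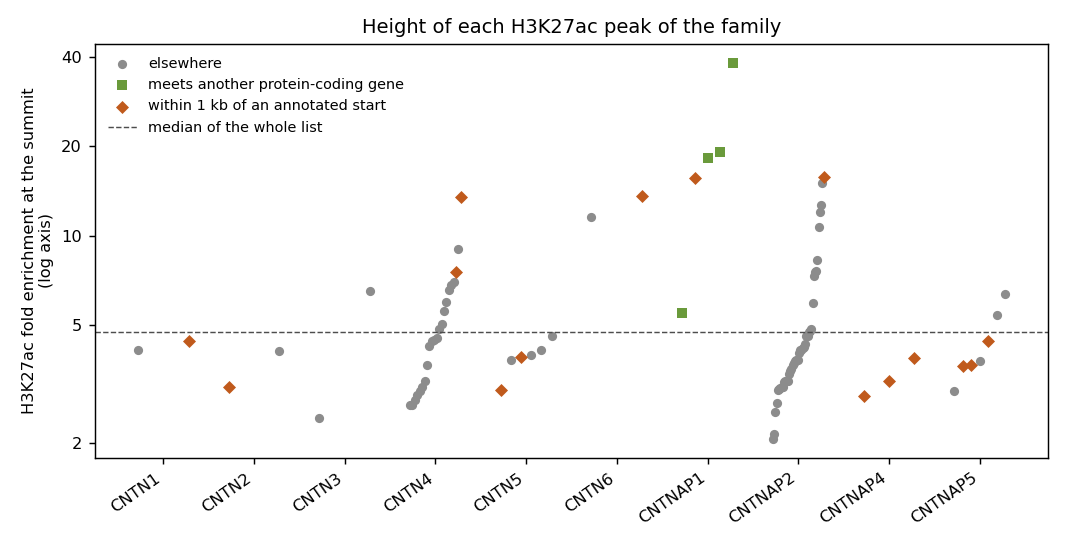
Fold enrichment of every H3K27ac peak in the 10 genes on a log axis, with peaks near annotated starts as orange diamonds, peaks that meet another protein-coding gene as green squares and the remainder as grey circles. Start peaks of CNTN4, CNTN6, CNTNAP1 and CNTNAP2 sit between 13.5 and 15.7, those of the other genes below the dashed list median of 4.74, except for the weaker of the pair at CNTN4, at 7.55.

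The promoter sequences of CNTN6 and CNTN3 are shown because their peaks ran against the usual relation of H3K27ac with CpG content. Each window holds 250 bases before to 50 bases after the start, from the RefSeq table of GRCh38.p14, with CG dinucleotides in capitals. The CNTN6 window (chr3:1092774-1093073, plus strand) has 6 CpG, and the CNTN3 window (chr3:74614610-74614909, minus strand) has 43.
CNTN6: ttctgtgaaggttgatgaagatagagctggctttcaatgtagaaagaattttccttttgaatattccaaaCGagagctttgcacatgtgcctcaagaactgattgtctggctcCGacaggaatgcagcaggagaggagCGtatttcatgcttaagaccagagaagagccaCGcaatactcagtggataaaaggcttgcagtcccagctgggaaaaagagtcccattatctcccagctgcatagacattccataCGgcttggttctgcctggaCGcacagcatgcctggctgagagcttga
CNTN3: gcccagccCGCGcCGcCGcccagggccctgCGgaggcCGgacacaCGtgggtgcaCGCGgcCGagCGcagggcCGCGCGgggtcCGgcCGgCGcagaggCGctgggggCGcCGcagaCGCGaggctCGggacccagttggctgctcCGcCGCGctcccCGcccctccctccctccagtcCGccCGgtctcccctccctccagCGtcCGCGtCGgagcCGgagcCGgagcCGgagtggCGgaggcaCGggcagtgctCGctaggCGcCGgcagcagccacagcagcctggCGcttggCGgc
Over the 22155 start windows of protein-coding genes, 19.0% of the 5292 windows with at most 6 CpG had an H3K27ac peak within 1 kb, against 87.3% of the 2176 windows with at least 40. CNTN6 belonged to the first class and carried a peak of 1503 bp with a fold enrichment of 13.6. The first start window of CNTN1 also had 6 CpG, and its peak was lower, at 4.43. CNTN3 belonged to the second class and had none.

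The windows of CNTN4, CNTN5 and CNTNAP2 are shown because a CTCF summit fell inside each of them.
CNTN4: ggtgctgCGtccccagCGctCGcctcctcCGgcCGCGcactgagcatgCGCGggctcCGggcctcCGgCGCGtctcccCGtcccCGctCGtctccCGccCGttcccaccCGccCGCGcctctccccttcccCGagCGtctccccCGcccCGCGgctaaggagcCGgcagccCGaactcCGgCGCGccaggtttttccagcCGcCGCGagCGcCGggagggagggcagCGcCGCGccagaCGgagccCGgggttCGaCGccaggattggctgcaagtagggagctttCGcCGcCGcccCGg
CNTN5: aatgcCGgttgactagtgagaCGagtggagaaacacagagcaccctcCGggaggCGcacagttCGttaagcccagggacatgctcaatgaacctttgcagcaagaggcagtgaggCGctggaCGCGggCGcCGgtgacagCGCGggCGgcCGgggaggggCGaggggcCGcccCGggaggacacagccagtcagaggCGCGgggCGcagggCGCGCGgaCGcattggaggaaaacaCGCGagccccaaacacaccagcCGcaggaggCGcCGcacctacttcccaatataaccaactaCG
CNTNAP2: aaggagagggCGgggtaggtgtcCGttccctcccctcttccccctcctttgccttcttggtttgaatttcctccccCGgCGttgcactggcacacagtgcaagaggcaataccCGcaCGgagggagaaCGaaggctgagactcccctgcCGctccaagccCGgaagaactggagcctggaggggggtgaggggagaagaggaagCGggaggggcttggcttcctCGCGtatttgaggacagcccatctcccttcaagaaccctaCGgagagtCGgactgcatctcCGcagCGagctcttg
The CNTN4 window (chr3:2098616-2098915) has 46 CpG and a CTCF summit 7 bp before the start, the CNTN5 window (chr11:99020699-99020998) has 30 and a summit 11 bp after it, and the CNTNAP2 window (chr7:146116551-146116850) has 16 and a summit 35 bp after it. All 3 are on the plus strand. The CNTN4 and CNTNAP2 summits belong to entries of exactly 800 bp, a width that recurs through the CTCF list. In the family's entries of that width the listed summit is the middle of the entry. The distances for CNTN4 and CNTNAP2 therefore do not locate a binding position. The CNTNAP2 entry, of 43.1, is also 1 of 3 overlapping entries at that start. The summit in the CNTN4 window belongs to a weak entry with a signal value of 14.4 and a −log10 q of 0.314, whereas the stronger peak of 85.2 has its summit 276 bp before the start, outside the window. The 7-letter strings AGGGGGC and AGGTGGC, which are common cores of the CTCF motif, were searched on both strands. Neither was found in any of the family's 13 start windows, while 23.3% of all start windows hold at least 1 of them. The search says only that these letters are not in these windows.

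CNTN1, the partner of CNTNAP1, spans 380 kb on chromosome 12 and had 2 H3K27ac peaks. The peak at its first annotated start (40828094 to 40828228) had a fold enrichment of 4.43, and its summit lay 10 bp before that start. A peak of 4.14 (40692499 to 40692763) lay 136 kb before that start, where the gene interval itself begins (40692439, plus strand). No start window was given at that place, and the later annotated start had no peak. Its 2 CTCF peaks had signal values of 84.8 and 47.4. The stronger lay 93.6 kb after the first start, and no CTCF peak of the list was closer to it. CNTN1 thus had few and low peaks: its H3K27ac number stood at percentile 12 and its CTCF number at percentile 8 of the 50 genes nearest in length, whose medians were 9 and 5.5.

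CNTN2, also known as TAG-1 and the partner of CNTNAP2, spans only 35.3 kb on chromosome 1. Its H3K27ac peaks were a start peak of 3.11, at percentile 13.7 of the whole list, and one of 4.09 inside the gene. The CTCF peak inside the gene (205061522 to 205061996) had a signal value of 292, at percentile 94.7 of the CTCF list. It shared 116 bp with the H3K27ac peak of 4.09, and a weaker CTCF peak of 51.9 followed without one. Its highest value was at percentile 86 of genes of similar length for CTCF and at percentile 10 for H3K27ac. The latter was 20.3 against all genes within 20% of the length, 22 against the 100 nearest genes and 70 with an extension of 50 kb. The CTCF rank was between 86 and 90 under the same settings.

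CNTN3 spans 352 kb on chromosome 3 and had no H3K27ac peak for 325 kb from its start. Its 2 peaks, of 6.51 and 2.43, lay side by side near the far end of the gene (74288221 to 74289473). The second had a −log10 q of 1.24, which is a q above 0.05. A CTCF peak with a signal value of 169 lay 347 kb from the start, close to the far end, and a weak one of 23.9 lay inside the gene. The number of H3K27ac peaks stood at percentile 10, and genes of similar length had a median of 10 peaks.

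CNTN4, an axon guidance receptor of the visual system, spans 959 kb on chromosome 3. Its 22 H3K27ac peaks formed 8 groups when peaks at most 12.5 kb apart were joined. The start carried a pair of peaks, 7.55 before and 13.5 after it. A CTCF peak of 85.2 overlapped the first by 184 bp, and a weak entry of 14.4, with a −log10 q of 0.314, overlapped both. Inside the gene, the group at 722 kb from the start reached 9.02 (2822386 to 2824084), the group at 412 kb reached 6.84, and a cluster of 5 narrow peaks at 54.8 kb reached 6.59. The later annotated start had no H3K27ac peak within 1 kb. CNTN4 held 8 CTCF peaks, of which the strongest, 220.8, lay 917 kb from the start and shared 145 bp with an H3K27ac peak of 2.81. Its numbers of H3K27ac and CTCF peaks were at percentiles 64 and 56 of genes of similar length.

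CNTN5, a contactin of the auditory pathway, spans 1338 kb on chromosome 11 and was sparsely marked for its length. It had 6 H3K27ac peaks, whose fold enrichments ran from 3.03 to 4.62, and a stretch of 917 kb without any. At its start, H3K27ac peaks of 3.90 and 3.03 lay on either side, from 99020328 to 99020720 and from 99020949 to 99021373. A CTCF peak of 78.7 (99020729 to 99021134) began between them and shared 186 bp with the second. Its strongest CTCF peak, 227, lay 4.90 kb before the start. Genes of similar length had a median of 20.5 H3K27ac and 11 CTCF peaks, against 6 and 4 in CNTN5, and its highest H3K27ac value was at percentile 2, the lowest rank in the family.

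CNTN6, a contactin that acts with CNTN4 and CNTN5 in axon and synapse development, spans 311 kb on chromosome 3. It had 2 wide H3K27ac peaks, at percentiles 86.9 and 83.8 of the whole list. The first was 13.6 at the start (1092029 to 1093531), and the second was 11.6 at 1086614 to 1088329, before the start. A CTCF peak of 82.6 lay entirely within the second and its summit was 5.87 kb before the start. From there on 311 kb of the gene, which is nearly its whole length, held no H3K27ac peak, and the only CTCF peak inside it had a signal value of 60.2. CNTN6 thus combined a start in the high set with a peak number at percentile 12 of genes of similar length. Its highest value, 13.6, was at percentile 36 of the same genes.

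CNTNAP1, the paranodal partner of CNTN1, is the shortest member, at 17.5 kb on chromosome 17. The peak at its own start (42682156 to 42683565) had a fold enrichment of 15.6. The 10 kb extension added 4 more H3K27ac peaks, and all of them met CCR10 or PLEKHH3, including the family's highest value of 38.2 (42677378 to 42678891, 3 bp of which are in the CCR10 interval). All 4 CTCF peaks also met these neighbours. The strongest, 257, lay inside an H3K27ac peak of 19.2 over CCR10, and one of 48.6 overlapped an H3K27ac peak of 18.3 that met PLEKHH3. Without peaks that meet another gene, CNTNAP1 had 1 H3K27ac and 0 CTCF peaks, and its highest H3K27ac value was at percentile 68 of genes of similar length instead of 94. One of the CTCF peaks, of 66.5, ended just inside the 1 kb window of the CNTNAP1 start.

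CNTNAP2, which encodes Caspr2 and is one of the longest human genes, spans 2304 kb on chromosome 7. Its 42 H3K27ac peaks formed 17 groups. The start peak (146115508 to 146117180) was 1673 bp wide with a fold enrichment of 15.7, and the next peak was 519 kb further on. Fold enrichments stayed at or below 4.87 up to a peak of 12.7 at 1659 kb from the start. Beyond 1900 kb lay 24 of the 42 peaks, with 15.0 at 148276304 to 148277727, 12.0 at 148144171 to 148145778 and 10.7 at 148334192 to 148335199. The peak of 15.0 was nearly as high as the start peak.

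The crowding at the far end of CNTNAP2 was set beside genes of similar length with at least 5 peaks inside the gene. The last 10% of the length of CNTNAP2 held 17 of its 41 internal summits (41.5%), against a median of 12.5% in 39 such genes, and 4 of the 39 had a higher share. The first 10% held 0%, since the summit of the start peak lies 425 bp before the gene interval, and the median of the 39 genes was 8%. This stretch was picked after the positions had been seen, so the comparison is a description. The CTCF peaks of CNTNAP2 showed a similar layout, with 9 of 19 beyond 1900 kb and the strongest, 301 (148262677 to 148263156), 2146 kb from the start. It was followed by 226 at 2126 kb and 186 at 1967 kb. At the start, 3 overlapping CTCF entries of 800 bp had lower signal values of 43.1 to 47.3, and all of them overlapped the H3K27ac start peak. The only other overlap was a CTCF entry of 25.6 at 2268 kb, which met H3K27ac peaks of 4.77 and 5.96.

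**Figure D3:**
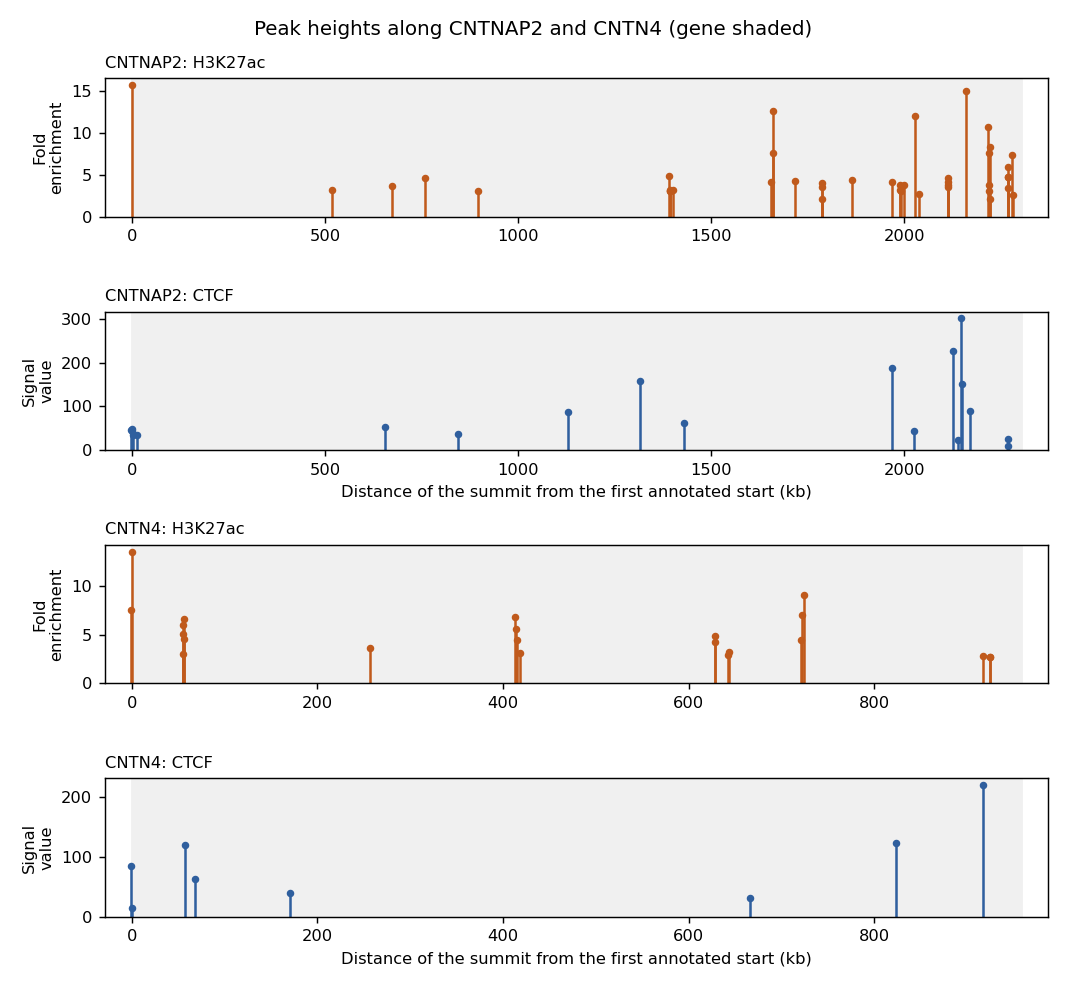
Height of each H3K27ac peak (fold enrichment) and CTCF peak (signal value) against the distance of its summit from the first annotated start in kb, for CNTNAP2 (upper panels) and CNTN4 (lower panels), with the gene shaded. In CNTNAP2 24 of 42 H3K27ac peaks lie beyond 1900 kb, whereas the peaks of CNTN4 are spread over 8 groups along the gene.

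CNTNAP4, a Caspr protein of inhibitory synapses, spans 283 kb on chromosome 16. All 3 of its H3K27ac peaks lay around the start, with fold enrichments of 3.25, 3.88 and 2.88, and the remaining 283 kb of the gene held none. Its single CTCF peak (76279016 to 76279417, signal value 96.4) lay 1.81 kb after the start, outside all 3. The height of 3.88 was at percentile 8 of genes of similar length.

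CNTNAP5 spans 896 kb on chromosome 2. Its start had a group of 3 low H3K27ac peaks, of 4.44, 3.65 and 3.68, with a pair of CTCF entries (48.2 and 21.4) between and across them. A further group of 3 peaks 549 kb on reached 6.36, which was higher than the start, and a last peak of 2.999 lay at 750 kb. Among its 9 CTCF peaks the strongest, 188, lay 2.04 kb after the start. CNTNAP5 had 7 H3K27ac peaks against a median of 14.5 in genes of similar length (percentile 29), whereas its CTCF number was at percentile 63. Of the 9 CTCF peaks, 6 had the recurrent width of 800 bp, and 3 were left without them.

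The members were then compared one by one with the 50 protein-coding genes nearest in length. The match was loose for the longest members. For CNTNAP2 (2304 kb) the 50 genes ran from 1129 to 2474 kb, and for CNTN5 (1338 kb) from 1075 to 1698 kb. Peak numbers were not scaled to length. For the number of H3K27ac peaks only CNTN4, CNTNAP1 and CNTNAP2 stood above percentile 50, and CNTN1, CNTN3, CNTN5 and CNTN6 stood between 10 and 13. The median percentile of the 10 genes was 28 for the number of H3K27ac peaks and 13 for the highest fold enrichment. For CTCF the medians were 35.5 and 40. Only CNTNAP1 and CNTNAP2 were above percentile 50 for the highest H3K27ac value. The rank of CNTNAP1 was 94 with the neighbouring peaks, 68 without peaks that meet another gene and 76 without the extension. These ranks describe single pooled lists and have no error.

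**Figure D4:**
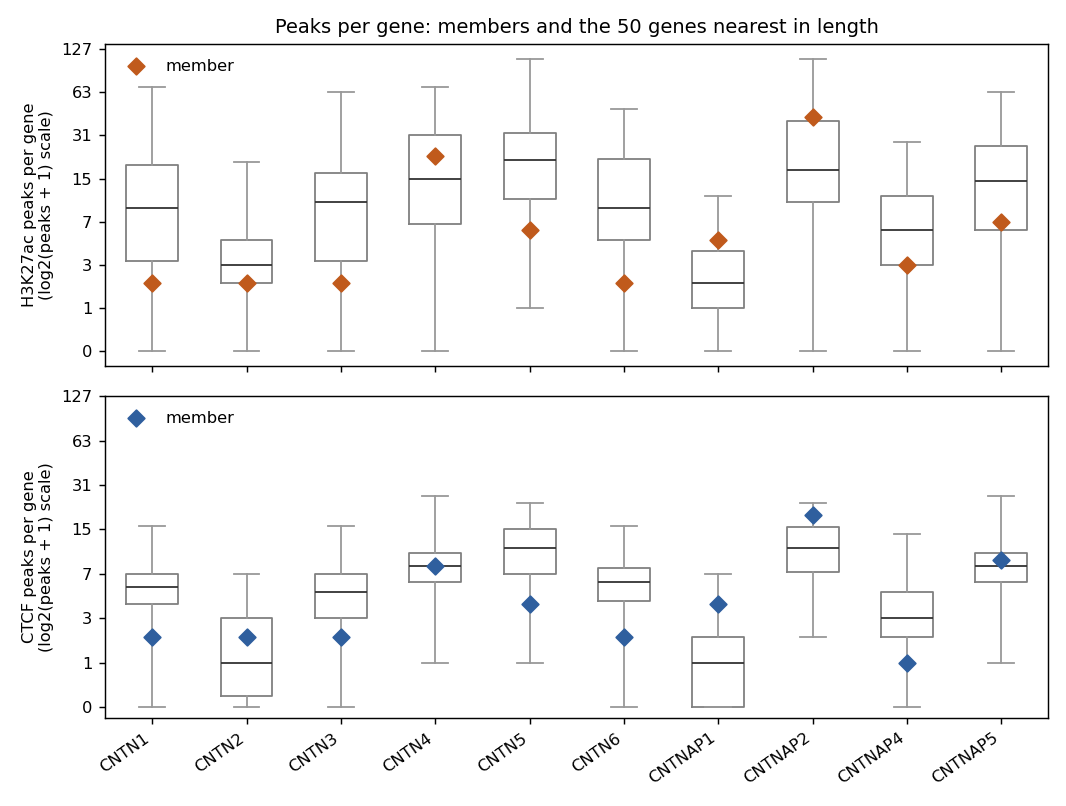
H3K27ac (upper panel) and CTCF (lower panel) peaks per gene on a log2(peaks + 1) scale, with diamonds for the members and boxes for the 50 genes nearest in length (box, quartiles; line, median; whiskers, lowest and highest). CNTN1, CNTN3, CNTN5 and CNTN6 lie below the boxes for H3K27ac. CNTNAP2 (2304 kb) lies above its box with 42 peaks, against a median of 17.5 in genes of 1129 to 2474 kb.

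Pooled over the family, peak height had a lower median than in the comparison sets. The 93 H3K27ac peaks had a median fold enrichment of 4.14, and 64 of them were in CNTNAP2 and CNTN4, which therefore weigh most. Medians of single members ran from 3.25 in CNTNAP4 to 18.3 in CNTNAP1, with its neighbours' peaks. The median of the whole list was exceeded by 32 of the 93. The same held for 2405 of 5342 peaks in genes of similar length and 31104 of 59532 in all protein-coding genes. The median was 4.45 in peaks of the genes of similar length and 4.88 in peaks of all protein-coding genes. The 53 CTCF peaks had a median signal value of 62.3, against 78.8 and 89.9 in the same sets. Peaks of exactly 800 bp, a width that recurs through the CTCF list, made up 26 of the 53 (49.1%), against 37.3% in genes of similar length, and without them the family's median was 120, against 132.

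Counted by entry, CTCF and H3K27ac met about as often in the family as in genes of similar length. Of the 53 CTCF peaks, 14 overlapped H3K27ac by at least 1 bp (26.4%, exact Clopper-Pearson 95% interval 15.3 to 40.3%, counting error only). The share was 26.3% in genes of similar length, inside that interval, and 34.1% in all protein-coding genes, also inside it. The interval counts each entry as separate, so it may be too narrow. Of the 14, 3 are overlapping entries at the CNTNAP2 start. A further pair overlapped each other at the CNTN4 start, and another pair at the CNTNAP5 start. With overlapping entries merged, the family's share was 20.4%, and the other sets were not recomputed that way. A CTCF peak lay within 1 kb of a start in CNTN4, CNTN5, CNTNAP1, CNTNAP2 and CNTNAP5, which is 5 of 10 genes, against 35.4% of all protein-coding genes. The distance from the first start to the nearest CTCF peak above the list median of 91.0 ranged from 1.81 kb in CNTNAP4 to 347 kb in CNTN3, and CNTN1 followed with 206 kb.

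Likeness to other genes was measured as the Euclidean distance over 4 values (numbers of H3K27ac and CTCF peaks and the highest value of each, as log2(x + 1)) within the 50 genes of similar length. The closest match of CNTNAP2 was PDE4D, at a distance of 0.39, with 45 H3K27ac and 19 CTCF peaks. For CNTNAP1 it was DENND4B (0.49), for CNTN4 TRPM3 (0.54) and for CNTN5 SGCZ (0.56), a gene with 4 H3K27ac peaks and a highest fold enrichment of 5.05. The remaining matches were HPSE2 for CNTNAP5, KLF8 for CNTN1, KCNH5 for CNTN3, EHD3 for CNTN2, GLRA2 for CNTNAP4 and GRIA3 for CNTN6, at distances of 0.72 to 1.44.

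Known partners and axonal neighbours of the family, together called partners here, had a higher median of the highest peak per gene than the members. The list was written with earlier results of these data known. Of 27 partner genes, 26 had an H3K27ac peak, and all 22 with an annotated start window had one there. The background shares were 77.1% of all protein-coding genes and 94.7% of genes as long as the members for any peak, and 65.9% and 80.0% at a start. KCNA1, a potassium channel of the juxtaparanode, had none, and its start was not in the table. Taking the highest peak of each gene, the median fold enrichment was 16.1 in the partners, 6.44 in the 10 members and 12.3 in all protein-coding genes. The highest values were 58.7 in NOTCH1, a contactin-binding receptor, 43.6 in KCNAB2, a potassium channel subunit, and 40.6 in DLG4, which encodes a postsynaptic scaffold. In the L1 family of adhesion molecules that bind contactins, the values were 20.1 in NRCAM, 12.97 in CHL1, 12.2 in L1CAM and 9.84 in NFASC, which binds the CNTN1 and CNTNAP1 pair across the paranode. These intervals also reach neighbouring genes by the extension of 10 kb. The partners, from 8.35 kb (KCNA1) to 736 kb (PTPRG) long, were not matched to the members in length.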

How the data were processed

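Per the labels' protocols, formaldehyde-fixed chromatin was sonicated and libraries were amplified by PCR. The build hg38 and cutadapt 1.16 come from the submitters' processing notes; aligner, peak caller and settings are not given in the sources used here. The deposited lists, 1 per antibody for both libraries, hold start, end and summit, the authors' signal value (CTCF, scale not stated) or fold enrichment (H3K27ac, judged from the values), a −log10 q and a score, which was not used. No value was compared between lists.

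Positions were made 1-based. Gene intervals and start windows came from RefSeq tables of GRCh38.p14, the same assembly as hg38. At least 1 bp of overlap was required. Each member was ranked among the 50 protein-coding genes on 23 chromosomes nearest in log length, with ties counted as 0.5. The members and gene lists were chosen with earlier results of these data known. Named peaks were the highest of each list per member, those within 1 kb of a start and those where both lists overlap, with others added from the positions. Code was tested on simulated data. Python 3.11.15, pandas 2.3.3 and scipy 1.17.1 were used.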

Additional observations from a re-analysis of the deposited data

How the results depend on the processing

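No paired analysis was possible because each list covers both libraries and holds no values of single replicates, and leaving out replicates was not run for the same reason. In the stronger 50% of each list, the number of members with an H3K27ac peak fell from 10 to 6, and the number with a start peak from 9 to 4. The peaks over the members fell from 93 to 32 for H3K27ac and from 53 to 15 for CTCF, and to 27 for CTCF without the 800 bp width. All stricter lists hold fewer peaks by construction. Without the extension, 9 of 10 members had a CTCF peak.

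The median percentile for the number of H3K27ac peaks (28) was 26 without extension, 31 with 50 kb, 28.5 with summits inside the interval, 17.5 in the stronger 50%, 25 with q under 0.01, 22.9 against all genes within 20% of the length, 23.5 against 100 genes and 30.5 without peaks that meet another gene. For the highest fold enrichment (13) it was 15, 22, 17.0, 18.5 and 18 for no extension, 50 kb, genes within 20%, 100 genes and no shared peaks. For the number of CTCF peaks (35.5) it was 23 and 31 for the extensions, 37 in the stronger 50%, 27.5 without the 800 bp width, 31 with merged entries, 31.5 within 20%, 30.25 against 100 genes and 21 without shared peaks. For the highest CTCF signal (40) it was 36, 37, 41.9, 42 and 38 in the order used for fold enrichment. All of these stayed below 50, and the cause of each move was not tested. The overlap share stayed inside its interval in the 7 alternatives, between 16.98% and 26.4%. Counting the ends of the gene table as starts was added after seeing the data and left 9 genes with a start peak.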
